A study of Homo sapiens with 4 samples.

Results

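The histone methylation and deacetylation enzymes were the protein-coding genes named KDM, KMT or SETD with a number, HDAC with a number, EZH1, EZH2, EHMT1, EHMT2 and NSD1 to NSD3. Of 53 such genes in the files, 52 reached an RPKM of 1 in at least 1 library, and these were described among the 14626 genes that did so out of 19801 listed. HDAC4, at 1.69 RPKM in its highest library, was the member just inside this limit, and HDAC9, at 0.12 RPKM in its highest library, was the gene just outside it. RPKM is a read count divided by the exon length of the gene and by the number of reads mapped in that library. The members comprised 18 lysine demethylases (KDM), 24 genes of the methyltransferase groups (KMT, SETD, EZH, EHMT and NSD) and 10 deacetylases (HDAC). RNA came from LNCaP, an androgen-sensitive line of human prostate cancer cells grown in 10% FBS. All cells had been transfected for 24 h, either with empty vector or with the AR1-651 plasmid. Ailanthone (AIL), a plant-derived small molecule, was then present or absent for the next 12 h. The conditions were empty vector or AR1-651, each without and with AIL. Each was sequenced as 1 library, so the differences below cannot be set against a spread between replicates and no test was run. The labels name no selection of transfected cells, so a library may hold cells with and without plasmid.

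Histone lysine methyltransferases and demethylases write and erase methyl groups on histone tails. Methylation of lysine 4 or 36 of histone H3 accompanies active genes, and methylation of lysine 9 or 27 accompanies silent ones. Histone deacetylases remove acetyl groups, mostly within corepressor complexes, and some act mainly on cytoplasmic proteins. Several of these enzymes, among them KDM1A, KDM3A, KDM4 proteins and EZH2, are known as partners or coregulators of steroid receptors, and HDAC6 deacetylates HSP90.

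The libraries matched prostate luminal cells, with KRT18 between 325 and 638 RPKM and FOLH1 between 425 and 840 RPKM. PTPRC and PECAM1, markers of leukocytes and endothelial cells, were below 1 RPKM in all 4 libraries. COL1A1, a fibroblast collagen, was between 1.75 and 4.59 RPKM, and the basal cell markers were not analysed here. KLK3 reached 1442 RPKM in the library labelled AR1-651 against 286.6 with empty vector. KLK3 alone does not settle which plasmid a library received, so each direction drawn from AR1-651 below rests on the library so labelled. The depth of the libraries is unknown, and the median RPKM over all listed genes was between 3.12 with AR1-651 and 4.68 with empty vector.

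HDAC1, a catalytic subunit of the SIN3, NuRD and CoREST corepressor complexes, was by far the most abundant of these transcripts. Its level was 104.2 RPKM with empty vector and 86.3 once AIL was added, and 148.7 RPKM with AR1-651 and 101.4 once AIL was added. HDAC1 thus held 41.5% of the summed RPKM of the 10 deacetylases with empty vector and 56.6% with AR1-651. The next levels with empty vector belonged to KDM6A, which removes methyl groups from lysine 27 of histone H3, at 45.9 RPKM, and to HDAC3, a catalytic subunit of nuclear corepressor complexes, at 34.1 RPKM. The lowest levels were those of HDAC4 and KDM4D, at 1.19 and 1.31 RPKM. The median RPKM of the members was 11.2 without and 13.4 with AIL in cells with empty vector, and 7.76 without and 10.6 with AIL in cells with AR1-651. Over all 14626 genes the medians were 9.26, 9.27, 6.83 and 8.47 RPKM in that order. AR1-651 was the lowest of the 4 libraries for 27 of the 52 members (51.9%), against 36.5% of all genes, and the highest library for 2 members (HDAC1 and HDAC11), or 3.85%, against 14.9% of all genes. Empty vector + AIL was the highest library for 19 members (36.5%), against 21.3% of all genes.

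**Figure D1:**
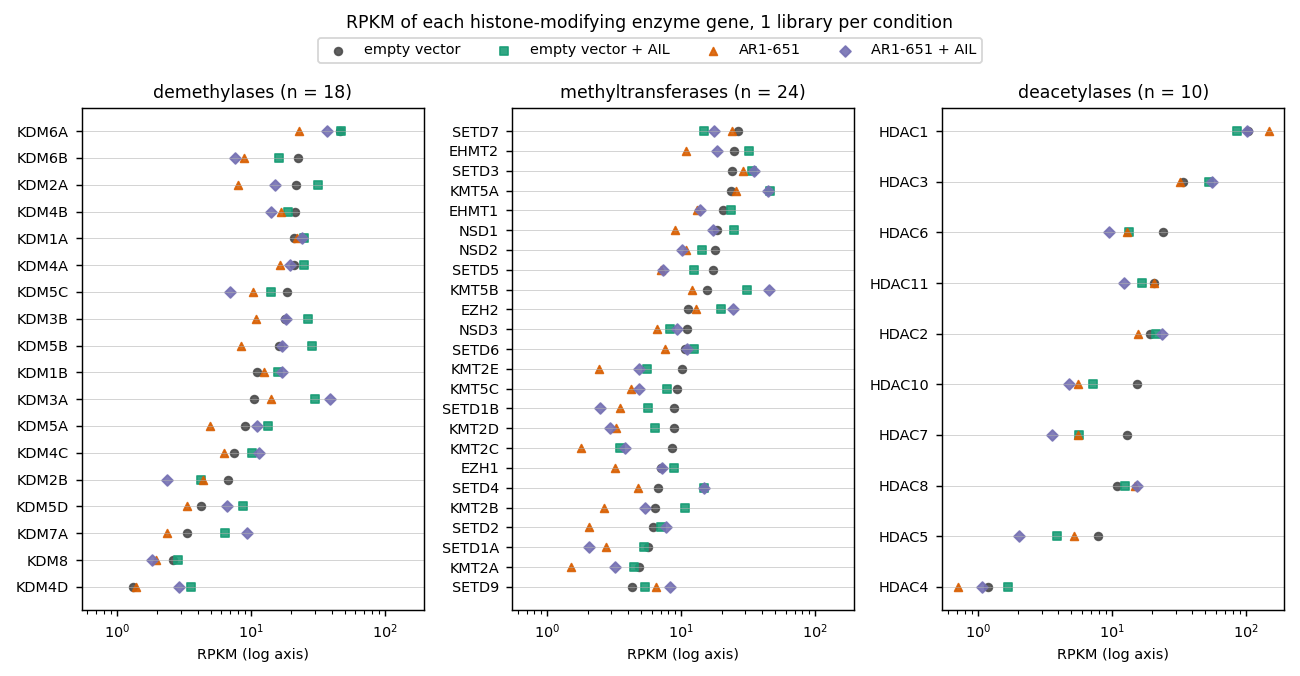
RPKM (log axis) of each of the 18 demethylases, 24 methyltransferases and 10 deacetylases, with 1 marker per library and no error bars because each condition has 1 library. The orange triangles (AR1-651) are the lowest marker for 27 of the 52 genes, while for HDAC1 the triangle is the highest at 148.7 RPKM.

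The first comparison asked how the AR1-651 library differed from empty vector in the absence of AIL. Differences were taken between values of log2(RPKM + 1), a scale that understates the change of weakly expressed genes, and a gene is called raised or lowered where the change on this scale was 2-fold or more. None of the 52 members was raised, against 4.01% of all genes, and 13 (25%) were lowered, against 11.6% of all genes. The lowered members were 9 of the 24 methyltransferases, 2 of the 18 demethylases and 2 of the 10 deacetylases. The median difference was -0.58 for the members and -0.30 for all genes, and by class it was -0.88 for methyltransferases, -0.35 for demethylases and -0.32 for deacetylases. In bulk RNA, fewer cells that express a gene and less of its RNA per cell cannot be told apart. The number lowered depended on how the libraries were scaled. With median-ratio scaling, which sets the middle of the genes level, KMT2A, KMT2C, KMT2E, SETD2, KDM2A and HDAC10 were lowered (6 members), and all genes were split into 1066 raised and 817 lowered, in place of 586 and 1701. With scaling to an equal summed RPKM, 24 members were lowered, and the split was 249 and 3640.

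All 5 genes of the KMT2 (MLL) family were among the 13. Of these, KMT2A, KMT2B, KMT2C and KMT2D, with SETD1A and SETD1B, supply most methylation of lysine 4 of histone H3. In the text that follows, 4 RPKM values in a row are given in one order, with empty vector first, then empty vector with AIL, then AR1-651, then AR1-651 with AIL. KMT2C (Entrez Gene 58508), which acts at enhancers, had 8.50, 3.49, 1.78 and 3.78 RPKM. It was highest with empty vector, and its difference between AR1-651 and empty vector of -1.77 was the most negative of all members. KMT2E (Entrez Gene 55904), whose SET domain has diverged from those of active enzymes, had 10.2, 5.55, 2.44 and 4.81 RPKM and a difference of -1.70. KMT2D, the other enhancer enzyme of the family, had 8.75, 6.34, 3.23 and 2.95 RPKM and a difference of -1.20. KMT2A, the founding member (MLL), had 4.82, 4.42, 1.51 and 3.2 RPKM and a difference of -1.21, so that AR1-651 was its low library. KMT2B, its close paralog, had 6.31, 10.7, 2.65 and 5.38 RPKM and lay just past the limit at -1.002. The SETD1 pair followed the same order of levels without AIL. SETD1B had 8.88, 5.65, 3.48 and 2.49 RPKM, with a difference of -1.14. SETD1A had 5.62, 5.27, 2.73 and 2.04 RPKM, and its difference of -0.83 did not reach 2-fold. KMT2C and KMT2E stood apart from the others of this group in that removing the length trend, described below, left them past the limit.

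Outside the KMT2 and SETD1 genes, 3 more methyltransferases were lowered. SETD2, the main enzyme for trimethylation of lysine 36 of histone H3, had 6.09, 7.05, 2.05 and 7.65 RPKM and a difference of -1.22. It was low in the AR1-651 library alone, and the other 3 libraries lay between 6.09 and 7.65 RPKM. EHMT2 (G9a), which methylates lysine 9 of histone H3, had 24.8, 31.8, 10.8 and 18.6 RPKM and a difference of -1.13. SETD5, a SET domain protein found with deacetylase complexes, had 17.4, 12.4, 7.01 and 7.32 RPKM and a difference of -1.20. Both AR1-651 libraries were thus low for SETD5. The Polycomb methyltransferases did not reach the limit in any comparison. EZH1 had 6.99, 8.87, 3.19 and 7.12 RPKM, and its difference was -0.93. EZH2, the form that prevails in dividing cells, had 11.3, 19.9, 12.8 and 24.1 RPKM, and its difference was 0.17.

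The lowered demethylases were KDM2A and KDM6B. KDM2A (Entrez Gene 22992), which binds unmethylated CpG islands and removes methyl groups from lysine 36 of histone H3, had 21.8, 31.7, 7.98 and 15.1 RPKM and a difference of -1.34. Both of its AR1-651 libraries were below both of its empty vector libraries. KDM6B (JMJD3), which acts on lysine 27 of histone H3, had 22.3, 16.1, 8.82 and 7.54 RPKM and a difference of -1.25, with the same separation. KDM6A, its X-linked paralog, had 45.9, 47.2, 22.9 and 37.0 RPKM and a difference of -0.98, just short of the limit. KDM1A (LSD1), the flavin-dependent demethylase of the CoREST complex, had 20.8, 24.8, 21.8 and 24.0 RPKM, and its 4 libraries differed little, with a difference of 0.07. The highest difference among demethylases was 0.39, for KDM3A. Among deacetylases, the lowered genes were HDAC7 and HDAC10. HDAC10 (Entrez Gene 83933), a class IIb enzyme that deacetylates polyamines, had 15.6, 7.22, 5.62 and 4.81 RPKM and a difference of -1.32. HDAC7 (Entrez Gene 51564), a class IIa corepressor of MEF2 factors, had 13.0, 5.69, 5.64 and 3.61 RPKM and a difference of -1.07. For both genes the empty vector library was more than 2-fold above every other library. HDAC6, the cytoplasmic deacetylase of tubulin and HSP90, had 24.3, 13.4, 12.9 and 9.53 RPKM and a difference of -0.86. The class I enzymes were not lowered, with differences of 0.51 for HDAC1, 0.41 for HDAC8, -0.06 for HDAC3 and -0.28 for HDAC2. HDAC8, the cohesin deacetylase, had 11.0, 12.6, 14.9 and 15.5 RPKM. SETD9, a little-studied SET domain gene, had 4.26, 5.39, 6.52 and 8.21 RPKM and the highest difference of all members, at 0.52.

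Transcript length moved with this comparison. The members had a median transcript length of 4688 nt, against 2561 nt for the 14005 of 14626 genes with a length, and 25 of the 52 members were in the longest sixth of all genes, above 4898 nt. Across all genes the difference between AR1-651 and empty vector fell with length (Spearman rho = -0.412), from a median of 0.19 in the shortest sixth to -0.71 in the longest. Across the 52 members, which share the same libraries, rho was -0.612. In the longest sixth the members had a median difference of -0.87, with 10 of 25 lowered, beside 26.7% of all genes of that length. Among the 10 members in the next sixth, the median was -0.58, against -0.48 for all genes of that length, and 2 were lowered, beside 13.8% of all genes of that length. The 6 members between 2562 and 3450 nt had a median of 0.06, against -0.34. The 13 lowered members had a median length of 6794 nt and the other 39 a median of 4306 nt. After the trend with length was removed, with a polynomial fitted across all genes, 3 members (5.77%) were lowered (KMT2C, KMT2E and HDAC10), beside 3.91% of all genes, and the member median was -0.08. With the trends of length and GC content removed together, 2 (3.85%) were lowered (KMT2C at -1.09 and KMT2E at -1.10), beside 3.81% of all genes, and the median was -0.04. The members' share was then close to that of all genes. KDM3A (0.84) and HDAC1 (0.55) then had the highest values of all members.

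**Figure D2:**
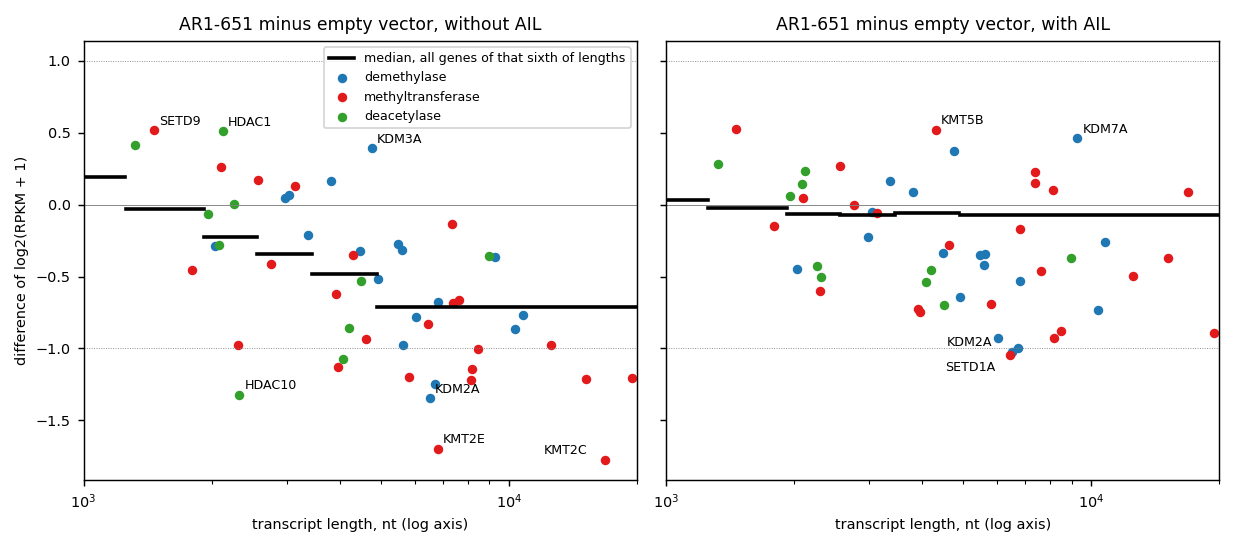
Difference of log2(RPKM + 1) between the AR1-651 and empty vector libraries without AIL (left) and with AIL (right) against transcript length in nt (log axis), with 1 point per member, coloured by class, and black lines for the median of all genes in each sixth of lengths. On the left the lines step down from 0.19 to -0.71 and most points follow them, with KMT2C and KMT2E far below and KDM3A above, whereas on the right the lines stay near 0.

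The second question was what AIL did to these genes in each background. On log2(RPKM + 1) with no trend removed, KDM3A and SETD4 were the only members raised in both backgrounds. The share of all genes raised in both was not calculated. KMT5B, with differences of 0.95 with empty vector and 1.82 with AR1-651, was just short of the limit with empty vector. With the length trend removed, KMT5B (1.07 and 1.55) and KDM7A (1.02 and 1.20) were raised in both backgrounds as well. With scaling to an equal summed RPKM, SETD4 had 0.97 with empty vector, short of the limit. KDM3A (Entrez Gene 55818), which removes methyl groups from lysine 9 of histone H3 and is known as a coactivator of steroid receptors, had 10.5, 29.9, 14.2 and 39.0 RPKM. Both libraries with AIL were above both without, by 2.84-fold in RPKM with empty vector and 2.75-fold with AR1-651, or 1.42 and 1.40 as differences of log2(RPKM + 1). SETD4 (Entrez Gene 54093), a SET domain methyltransferase, had 6.66, 14.8, 4.76 and 14.8 RPKM, and the differences were 1.05 and 1.46. The level of SETD4 with AIL was the same with and without AR1-651.

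With empty vector, these 2 were the only members raised (3.85%, against 9.53% of all genes), and 3 were lowered (5.77%, against 9.03% of all genes). In cells with AR1-651, AIL raised 6 members (11.5%, against 14.9% of all genes) and lowered 1 (1.92%, against 5.74% of all genes). At this limit and scaling, the share of members called was below that of all genes in each of these directions. The lowered shares stayed below those of all genes in every setting tried, but the raised shares did not. At 1.5-fold, AIL with AR1-651 raised 44.2% of members, against 28.6% of all genes. With the length trend removed, AIL with empty vector raised 11.5%, against 9.4%. The median difference was 0.19 with empty vector, where all genes had -0.02, and 0.43 with AR1-651, where all genes had 0.13. With AR1-651, 2184 genes were raised and 839 lowered in all, which became 1582 and 1261 with median-ratio scaling and 2775 and 580 with equal summed RPKM, and the members raised then numbered 5 and 11. Demethylases had the highest class medians, 0.44 with empty vector and 0.68 with AR1-651, and deacetylases the lowest, -0.28 and -0.30. Methyltransferases had medians of 0.18 and 0.62. Differences were above 0 in both backgrounds for 30 members, below 0 in both for 15 and of opposite sign for 7. The same counts were not made over all genes. Within one background, 59.6% of members were above 0 with empty vector, against 48.3% of all genes. With AR1-651 these shares were 69.2% and 56.2%. The comparisons in each background shared no library, but both rested on 1 library per condition.

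The other members raised with AR1-651 + AIL against AR1-651 were KMT5B, KDM7A, SETD2 and KDM5A. KMT5B (Entrez Gene 51111), which di- and trimethylates lysine 20 of histone H4, had 15.6, 31.1, 12.0 and 45.1 RPKM, with differences of 0.95 with empty vector and 1.82 with AR1-651. KDM7A, a demethylase of lysine 9 and 27 of histone H3, had 3.32, 6.44, 2.35 and 9.25 RPKM, with differences of 0.78 and 1.61. Both genes were higher with AIL in each background and highest with AR1-651 + AIL. KDM5A, a demethylase of lysine 4 of histone H3, had 9.02, 13.4, 4.90 and 11.1 RPKM, with differences of 0.53 and 1.03. SETD2 had a difference of 1.5 with AR1-651 but of 0.18 with empty vector, and its level with AR1-651 + AIL was close to both levels without AR1-651. Because the AR1-651 library enters both this difference and the one against empty vector, a low value there gives a fall in one and a rise in the other. EZH2 had differences of 0.77 and 0.87, and its levels with AIL were 1.76-fold and 1.89-fold those without. KDM4D, a testis-enriched demethylase of lysine 9, had 1.31 RPKM with empty vector and 3.59 with empty vector + AIL, a ratio of 2.74 that on the log2(RPKM + 1) scale came to 0.99.

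**Figure D3:**
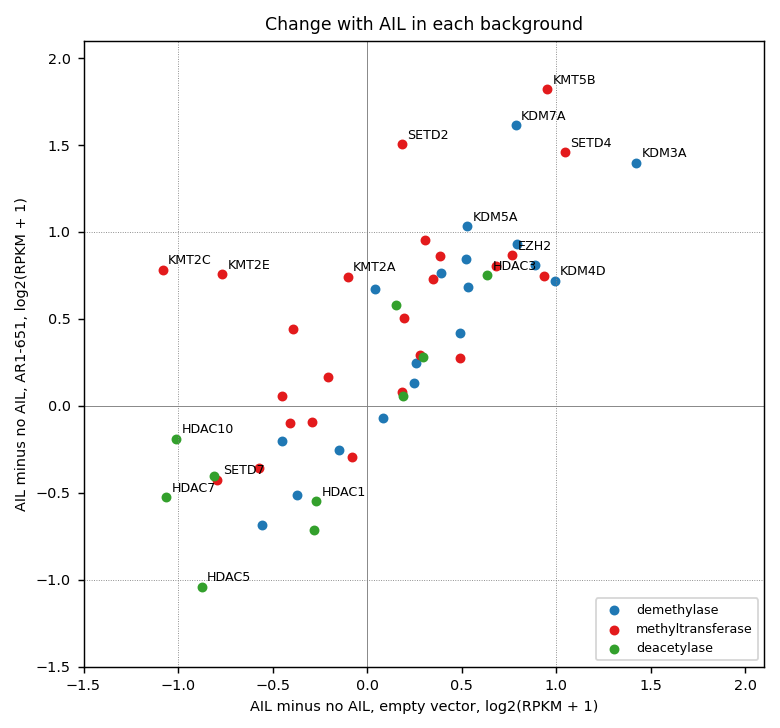
Difference of log2(RPKM + 1) between the libraries with and without AIL in cells with empty vector (horizontal) and with AR1-651 (vertical), with 1 point per member, coloured by class, and dotted lines at a 2-fold change. KDM3A and SETD4 lie past the dotted line on both axes, KMT2C and KMT2E are in the upper left quadrant, and HDAC5, HDAC7 and HDAC10 are at the lower left.

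The deacetylases differed among themselves under AIL. HDAC3 had 34.1, 53.4, 32.6 and 55.6 RPKM, so that both libraries with AIL lay above both without, with differences of 0.63 with empty vector and 0.75 with AR1-651. HDAC2, the partner of HDAC1 in most of its complexes, had 19.2, 21.5, 15.6 and 23.9 RPKM, with differences of 0.15 and 0.58. HDAC1 went the other way, at -0.27 and -0.55. HDAC5, a class IIa corepressor, had 7.97, 3.89, 5.21 and 2.02 RPKM, with differences of -0.88 and -1.04, and was the one member lowered by AIL in cells with AR1-651. HDAC7 was lowered with empty vector (-1.06) and had -0.53 with AR1-651. HDAC10 was likewise lowered with empty vector (-1.01), and its difference with AR1-651 was -0.19. HDAC6 had differences of -0.81 and -0.40. All 4 of HDAC5, HDAC6, HDAC7 and HDAC10 were lowest with AR1-651 + AIL. HDAC4, the remaining class IIa gene, was at 1.19, 1.69, 0.71 and 1.08 RPKM and differed from its class, with 0.30 and 0.28, at a level near the lower limit.

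KMT2C was the third member lowered by AIL with empty vector (-1.08), although with AR1-651 its difference was 0.78. KMT2C has near-identical partial copies elsewhere in the genome, and how reads shared among copies were counted is not given in the sources used here, so its level is uncertain. The lowest difference among demethylases was that of KDM2B, a subunit of a variant Polycomb complex, which had 6.70, 4.23, 4.38 and 2.35 RPKM and differences of -0.56 and -0.68. SETD7, which monomethylates lysine 4 of histone H3, had 26.3, 14.8, 23.8 and 17.5 RPKM, with differences of -0.79 and -0.43. Both of its libraries with AIL were below both without.

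GC content of the transcript moved with the AIL difference in cells with AR1-651. Spearman's rho with GC content was -0.599 across the 52 members and -0.407 across all genes, while with empty vector it was -0.367 and -0.06. HDAC5, HDAC6, HDAC7 and HDAC10 have transcripts of 57.7 to 65.8% GC, and KMT5B and KDM7A of 40.7% and 38.5%. With the trends of length and GC content removed, KDM3A (1.49 and 1.03) stayed past the limit in both backgrounds, and SETD4 had 0.99 and 1.29. KDM5D, a Y-linked demethylase of lysine 4 of histone H3 (1.10), and KMT2B (1.06) then passed the limit with empty vector, which they did not without this step. KMT5B had 0.98 and 1.21 and SETD2 0.34 and 1.03. KDM7A became 0.99 and 0.82, KDM5A 0.70 and 0.52, and HDAC5 -0.61 and -0.88, none of them past the limit. HDAC10 then had -0.999 with empty vector, barely short of 2-fold, and HDAC7 had -0.83.

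With no trend removed, KDM3A and SETD4 were raised by AIL in both backgrounds. KMT2C, HDAC7 and HDAC10 were lowered both by AR1-651 and by AIL with empty vector, comparisons that share the empty vector library. The share of all genes lowered in both was not calculated. The AIL differences of KMT2C, HDAC7 and HDAC10 with AR1-651 were not alike, at 0.78, -0.53 and -0.19. The upstream sequences of these 5 members are shown because of the calls they shared. Each is the 250 bases before the first start that RefSeq lists for the gene (GRCh38.p14), 5′ to 3′ on the strand of the gene, and capitals mark GC boxes (GGGCGG) and CCAAT boxes (CCAAT), read on both strands. GRCh38 positions belong to the RefSeq sequences only, since the expression values were made on hg19.
KDM3A, chr2:86441121-86441370, plus strand: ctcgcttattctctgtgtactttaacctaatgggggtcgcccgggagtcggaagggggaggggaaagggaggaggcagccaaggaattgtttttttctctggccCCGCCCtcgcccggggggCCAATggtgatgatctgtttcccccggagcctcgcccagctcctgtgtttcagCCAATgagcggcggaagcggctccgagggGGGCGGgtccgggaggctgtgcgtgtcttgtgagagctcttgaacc
SETD4, chr21:36060527-36060776, minus strand: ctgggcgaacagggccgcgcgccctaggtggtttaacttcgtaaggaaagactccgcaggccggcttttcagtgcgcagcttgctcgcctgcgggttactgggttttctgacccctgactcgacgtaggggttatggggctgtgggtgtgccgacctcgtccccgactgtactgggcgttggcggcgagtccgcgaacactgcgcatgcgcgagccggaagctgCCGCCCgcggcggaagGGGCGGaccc
KMT2C, chr7:152436004-152436253, minus strand: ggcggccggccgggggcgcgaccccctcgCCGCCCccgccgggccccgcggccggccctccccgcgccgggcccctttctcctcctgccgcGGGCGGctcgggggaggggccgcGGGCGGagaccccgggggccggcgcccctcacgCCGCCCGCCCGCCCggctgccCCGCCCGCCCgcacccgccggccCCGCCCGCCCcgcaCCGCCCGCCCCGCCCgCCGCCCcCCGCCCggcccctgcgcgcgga
HDAC7, chr12:47819904-47820153, minus strand: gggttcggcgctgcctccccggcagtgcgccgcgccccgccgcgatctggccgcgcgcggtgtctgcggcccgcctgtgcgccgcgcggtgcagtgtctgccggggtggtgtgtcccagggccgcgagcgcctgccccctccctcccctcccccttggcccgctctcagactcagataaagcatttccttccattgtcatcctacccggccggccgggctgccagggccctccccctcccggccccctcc
HDAC10, chr22:50251266-50251515, minus strand: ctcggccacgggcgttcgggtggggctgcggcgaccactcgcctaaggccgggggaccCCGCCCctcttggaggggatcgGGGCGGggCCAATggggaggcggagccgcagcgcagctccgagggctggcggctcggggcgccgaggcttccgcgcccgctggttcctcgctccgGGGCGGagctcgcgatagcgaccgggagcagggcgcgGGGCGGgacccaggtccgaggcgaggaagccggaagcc

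The KDM3A window held 2 GC boxes and 2 CCAAT boxes, and the SETD4 window 2 GC boxes and no CCAAT box. The KMT2C window, of 92.0% GC, held 15 GC boxes, HDAC10 held 4 and 1 CCAAT box, and HDAC7 held neither. Several of the 15 matches in KMT2C share bases with a neighbouring match, so they are not all separate sites. Neither box thus separated the raised from the lowered genes. A window was found for 49 of the 52 members, of which 37 (75.5%) held a GC box, against 65.5% of the 11173 genes with a window and RPKM of at least 1 and 42.3% of all 27305 genes with a window. A CCAAT box was in 34.7% of the members, against 35.7% and 33%. The androgen response half-site (AGAACA) was in 1 member window, or 2.04%, against 7.72% and 12.4%. The core of the cyclic AMP response element (TGACG), the E-box (CACGTG) and the hypoxia response core (ACGTG, which every E-box contains) were in 12.2%, 14.3% and 20.4% of the member windows, against 29.9%, 8.74% and 23.1% of the windows of genes with RPKM of at least 1. None of these 4 motifs was in any of the 5 windows shown. A match is a run of letters and not evidence of binding, and a factor may bind outside these bases.

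With AIL present in both libraries, AR1-651 and empty vector differed less. None of the members was raised, against 1.46% of all genes, and 2 (3.85%) were lowered, against 3.53% of all genes. These were KDM2A (-1.02) and SETD1A (-1.04), and KDM6B (-0.997) was barely short of the limit. The member median was -0.35 and that of all genes -0.03. Of the 13 members lowered by AR1-651 without AIL, KDM2A was the only one also lowered with AIL. The share of all genes lowered in both was not calculated. KMT2C (0.09), SETD2 (0.10) and KMT2E (-0.17), at or beyond -1.22 without AIL, were close to 0 with it. The members highest in this comparison were SETD9 (0.53), KMT5B (0.52) and KDM7A (0.46), and the lowest deacetylase was HDAC5 (-0.70). All 4 class I deacetylases were above 0, the highest being HDAC8 at 0.28, while the other 6 were below 0. With the trends of length and GC content removed, this split by class was not kept. Of the 10 deacetylases, 7 were then above 0, among them HDAC4, HDAC6, HDAC7 and HDAC10 (at most 0.08), and HDAC2 was at -0.23. Spearman's rho of this difference with length was -0.07 across all genes and -0.336 across the 52 members, and with GC content it was -0.607 and -0.733. With the length trend alone removed the member median was -0.24 and no member was lowered. With the trends of length and GC content removed the member median was -0.06 and no member was lowered.

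Paralogs within one library are free of the scaling between libraries, and their RPKM ratios showed which of a pair prevailed. The pairs were picked after the values had been seen. The ratio of EZH2 to EZH1 was 1.61, 2.24, 4.01 and 3.39, so that the ratio was higher in both AR1-651 libraries. The ratio of HDAC1 to HDAC3 was 3.06, 1.62, 4.56 and 1.82 in the same order, and was lower in both libraries with AIL. KMT5B to KMT5C, the paired enzymes of lysine 20 of histone H4, gave 1.69, 3.96, 2.87 and 9.33, rising with AIL in each background. KDM5B to KDM5C, demethylases of lysine 4 of histone H3, gave 0.87, 2.03, 0.81 and 2.42, so that with AIL the more abundant gene of the pair changed from KDM5C to KDM5B. The transcripts of each pair differ in length or GC content, and the part of these properties in the ratios was not tested.

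**Figure D4:**
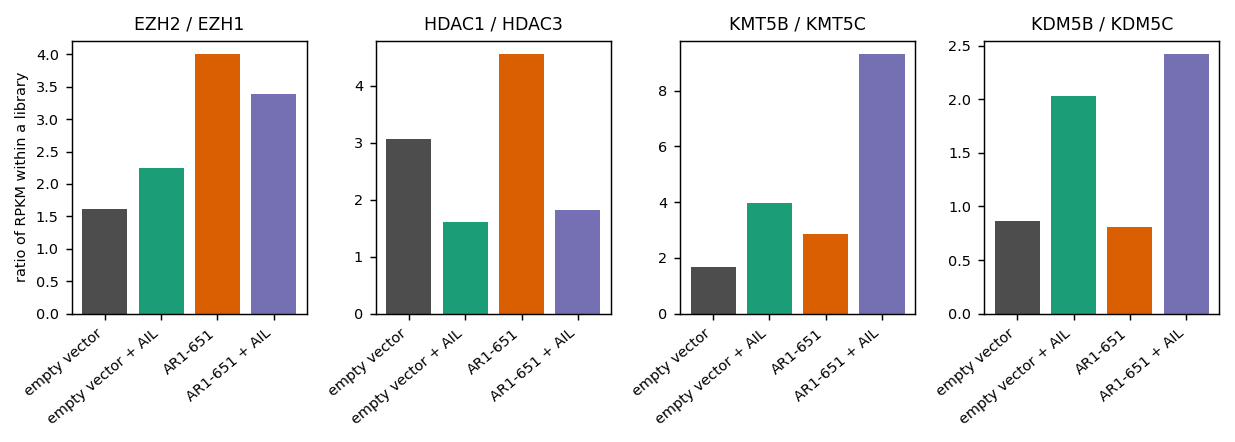
Ratio of the RPKM of a pair of paralogs within each library, as bars from 0, with 1 library per condition and no error bars. HDAC1 to HDAC3 is lower and KDM5B to KDM5C higher in both libraries with AIL, and EZH2 to EZH1 is higher in both AR1-651 libraries.

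The remaining 20 members, some of them already mentioned, had RPKM between 0.71 and 45.7, and their differences of log2(RPKM + 1) reached 2-fold in no comparison. As plain RPKM ratios, 6 of them passed 2-fold somewhere: KDM4D, KDM5B and KDM5D were higher with AIL, at most 2.74-fold, and KDM5C, KMT5C and NSD1 were lower with AR1-651, at most 2.20-fold. They were KDM1B, KDM3B, KDM4A, KDM4B, KDM4C, KDM4D, KDM5B, KDM5C, KDM5D, KDM8, EHMT1, KMT5A, KMT5C, NSD1, NSD2, NSD3, SETD3, SETD6, HDAC4 and HDAC11. Between AR1-651 and empty vector their differences ran from -0.98 for NSD1, an enzyme of lysine 36 of histone H3, to 0.26 for SETD3, which methylates actin. With AIL they ran from -0.39 (NSD3) to 0.99 (KDM4D) in cells with empty vector, and from -0.71 (HDAC11) to 0.93 (KDM5B) in cells with AR1-651. Between the libraries with AIL they ran from -0.93 (KDM5C) to 0.16 (KDM4C). KMT5A, the monomethyltransferase of lysine 20 of histone H4, reached the highest level among them, at 45.7 RPKM with empty vector + AIL.

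Other genes of the same machinery were read from lists. Of 26 partner subunits, AR1-651 lowered 5 without AIL, among them HCFC1, SIN3B, SUZ12 and WDR5, and raised none, with a median of -0.72. These 5 are 19.2% of the list, beside 11.6% of all genes, whose median was -0.30. The partners had a median transcript length of 4447.5 nt, against 2561 nt for all genes with a length. SUZ12, a core subunit of the Polycomb complex that holds EZH1 or EZH2, had 12.4, 8.92, 4.90 and 10.5 RPKM. Its partner EED had 12.4, 19.2, 7.16 and 20.6 RPKM and was raised by AIL with AR1-651, as was RCOR1, the CoREST scaffold that binds KDM1A, with 7.58, 17.6, 4.21 and 12.5 RPKM. With empty vector AIL raised 3 partners and lowered 3 (11.5% each, beside 9.53% and 9.03% of all genes), and with AR1-651 it raised 3 (11.5%, beside 14.9%) and lowered 1 (3.85%, beside 5.74%). Of 33 further methylation and deacetylation enzymes, AR1-651 lowered 5 (15.2%, beside 11.6% of all genes). AIL raised 5 of them with empty vector (15.2%, beside 9.53%) and 10 with AR1-651 (30.3%, beside 14.9%), and lowered 1, PRMT2, in each (3.03%, beside 9.03% and 5.74%). SIRT6 and SIRT7, NAD-dependent deacetylases, were raised by AIL in both backgrounds, SIRT6 from 25.5 to 81.6 RPKM with empty vector and from 25.1 to 57.9 with AR1-651. SIRT1, of the same family, had 12.0, 21.6, 4.79 and 23.9 RPKM. Of 11 acetyltransferases, the opposing enzymes, AR1-651 lowered 4 (CREBBP, EP300, KAT2A and KAT6A), or 36.4% beside 11.6% of all genes. The transcripts of EP300, CREBBP and KAT6A, at 9587, 9200.5 and 9192 nt, lie in the longest sixth of all genes, where 26.7% were lowered. That of KAT2A has 3109 nt. The part of transcript length in these list counts was not tested. KAT5, the acetyltransferase of the TIP60 complex, was raised by AIL in both backgrounds, with 27.9, 91.5, 43.1 and 94.4 RPKM. With AIL in both libraries, AR1-651 lowered 3 partners (11.5%, beside 3.53% of all genes), among them HCFC1 and MEN1, and none of the further enzymes or acetyltransferases.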

How the data were processed

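LNCaP cells under 4 conditions were profiled by RNA-seq, with 1 library each and groups taken from the sample labels. The labels name a ribosomal RNA depletion kit and also describe oligo(dT) enrichment, so which selection was used is unclear, and selection can change coverage of long transcripts. Per the labels, the submitters' processing notes name BWA 0.7.10-r789 and hg19. The kit keeps strand, but the counting tool, annotation and use of strand are not given in the sources used here. The authors deposited RPKM per gene, rounded to 2 decimals, which does not correct for a few abundant genes taking a larger share of the reads in a library.

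Symbols came from a RefSeq table by Entrez Gene identifier (19703 of 19801 matched). Transcript length and GC content (median over the RefSeq transcripts listed for a gene) came from GENCODE release 29 and were found for 95.8% of the 14626 genes that reached RPKM 1 in any library and for all 52 members. Differences of log2(RPKM + 1) were calculated in 4 comparisons, and at least 2-fold was called raised or lowered. Trends were removed with polynomials of degree 3 in the rank of each property. Members, lists, motifs and tests were chosen with earlier results of these data known. Given in full were members changed at least 2-fold in any comparison, the highest and lowest of each class in each comparison, and EZH1, EZH2, KDM1A, KDM6A, KDM6B, KMT2A, KMT2D, HDAC1, HDAC2, HDAC3 and HDAC6. KDM4D, KDM5B, KDM5C, KMT5A and KMT5C were named in addition, after their values were seen. Alternatives were a pseudocount of 0.1, median-ratio scaling, TPM-like scaling (equal summed RPKM), RPKM of at least 5, no filter, 1.5-fold, and removal of either trend. The levels of some genes, one of them part of the check of the labels, are not reported here. The calculations were tested on simulated data. Python 3.11.15, NumPy 2.4.6, SciPy 1.17.1, pandas 2.3.3 and matplotlib 3.10.9 were used.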

Additional observations from a re-analysis of the deposited data

Results flagged for a closer look

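For 7 members the difference with AIL had opposite signs in the 2 backgrounds, and the share of all genes with opposite signs was not calculated. With 1 library per condition this difference between backgrounds was not tested. As the difference with AR1-651 minus that with empty vector, it was 1.86 for KMT2C, 1.52 for KMT2E, 0.85 for KMT2A, 0.83 for NSD3, 0.51 for SETD5, 0.37 for KMT5C and -0.16 for KDM8. KMT2C (-1.08 with empty vector and 0.78 with AR1-651) and KMT2E (-0.77 and 0.76) changed by more than 1.5-fold in each direction. Both were highest with empty vector and lowest with AR1-651. The values for KDM8 (0.09 and -0.07) are both near 0. With the length trend removed, KMT2A (0.14 and 0.30), SETD5 (-0.26 and -0.28), KMT5C (-0.29 and -0.03) and KDM8 (-0.02 and -0.25) had the same sign in both backgrounds. KMT2C, KMT2E and NSD3 kept opposite signs. With the trends of length and GC content removed, KMT2C had -0.88 and 0.39, and KMT2E had -0.63 and 0.29.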

How the results depend on the processing

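No paired analysis was possible because each condition has 1 library, and for the same reason no library was left out. In all settings tried, no member was raised by AR1-651 with or without AIL, and all 4 member medians kept their sign. No member difference of 2-fold or more changed sign.

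AR1-651 lowered 13 members (25%, against 11.6% of all genes). The number was 6 with median-ratio scaling (11.5%, against 5.59%), 24 with TPM-like scaling (46.2%, against 24.9%) and 18 with a pseudocount of 0.1 (34.6%, against 20.8%). It was 3 with the length trend removed (5.77%, against 3.91%), 2 with the length and GC trends removed (3.85%, against 3.81%) and 26 at 1.5-fold (50%, against 32.3%). The median (-0.58) was -0.34 with median-ratio scaling, -0.90 with TPM-like scaling, -0.081 with the length trend and -0.041 with both trends removed. With AIL present, the 2 lowered members became 6 with a pseudocount of 0.1 (11.5%, against 7.93% of all genes) and 14 at 1.5-fold (26.9%, against 15.5%). They became 0 with median-ratio scaling (against 2.82%), the length trend removed (against 2.55%) or both trends removed (against 1.35%). The median (-0.35) was -0.24 with the length trend and -0.063 with both trends removed. For AIL with empty vector, the 2 raised members became 4 with a pseudocount of 0.1 (7.69%, against 12.4% of all genes) and 1 with TPM-like scaling (1.92%, against 8.23%). They became 6 with the length trend removed (11.5%, against 9.4%) and 11 at 1.5-fold (21.2%, against 20.9%). The 3 lowered became 1 with the length trend removed (1.92%, against 8.55%), 0 with both removed (against 8.47%) and 7 at 1.5-fold (13.5%, against 22.1%). For AIL with AR1-651, the 6 raised members became 11 with a pseudocount of 0.1 (21.2%, against 20.6% of all genes) or TPM-like scaling (21.2%, against 19.0%). They became 23 at 1.5-fold (44.2%, against 28.6%). The 1 lowered became 0 with TPM-like scaling (against 3.97%) or both trends removed (against 7.5%) and 3 at 1.5-fold (5.77%, against 14.7%). The median (0.43) was 0.23 with median-ratio scaling, 0.60 with TPM-like scaling, 0.18 with the length trend and 0.22 with both trends removed. TPM-like scaling moved the median of all genes for AR1-651 from -0.30 to -0.59 and median-ratio scaling to -0.09, so the number lowered is relative to that choice. RPKM of at least 5 left 48 members and changed these counts by at most 1. The depth is unknown, so counting error could not be given.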

Other observations

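Exons of 11 of the 20 members changed at least 2-fold in a comparison overlap exons of another gene in GENCODE release 29, 6 of them those of a protein-coding gene. Only these 20 were examined, and the share among the other members or all genes was not calculated. HDAC10 overlaps MAPK12 and KMT2A overlaps AP001267.5 on the same strand. On the opposite strand, HDAC7 overlaps SLC48A1, KMT2E overlaps SRPK2 and KMT2E-AS1, KMT2B overlaps IGFLR1 and KDM5A overlaps CCDC77. SETD4 overlaps an antisense transcript. How reads of overlapping exons were counted is not given in the sources used here, and their part in the values was not tested.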
